A study of Mus musculus with 6 samples.

Results

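Slc1a2, Slc1a3, Glul, Aqp4, Slc4a4, Atp1b2, Gja1, Gjb6 and Gfap, 9 genes that astrocytes use for glutamate uptake, water and ion transport, cell coupling and their cytoskeleton, were followed in RNA of mouse hippocampus. They were taken by name from a count table of 39017 genes, and all 9 had enough counts in both groups to be tested. The table holds 3 input libraries, made from tissue RNA without antibody, and 3 IP libraries, made from RNA recovered with anti-HA magnetic beads. Every library came from female C57BL/6 mice of the genotype Tmem119-Cre:RiboTag. In these mice Cre is driven from Tmem119, a gene of microglia, and switches the ribosomal protein Rpl22 to a form with an HA tag, so that beads against HA can recover ribosomes of cells that expressed Cre. The input mice therefore carried the tag as well, and no library from mice without it was analysed here. An input and an IP library share each title code, and codes 1 to 3 are called pairs below. The labels used here give no age and do not state that a code is 1 animal, and the p-values given reflect the spread among coded specimens only, which may be technical. Kdm6a deletion and a multiple sclerosis model appear in the study's title, but the labels of these libraries name neither, and the comparison available was IP against input.

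Astrocytes clear glutamate from the synaptic cleft by sodium-coupled transporters, convert it to glutamine with glutamine synthetase and return the glutamine to neurons. They also take up potassium released by active neurons, move water at their endfeet on blood vessels and share ions and small molecules through gap junctions made of connexins. Glial fibrillary acidic protein is their characteristic intermediate filament. Not all of these RNAs are exclusive to astrocytes, and glutamine synthetase is also made by other glial cells.

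The libraries held 18448897 to 20422140 counts in input and 10757351 to 18558497 in IP, and 3 counts, the most that a count of 0 allows, correspond to 0.14 to 0.28 CPM. CPM is the read count relative to the library total after scaling by TMM factors, which align most genes between libraries. The labels call the cell type microglia in both groups, but the input held RNA of the whole tissue: 15 neuronal markers summed to 14227 to 18176 CPM there and to 3734 to 5895 CPM in IP. All 12 microglial markers were higher in IP (edgeR adjusted p below 0.05), where 23.8% of 16196 tested genes were higher. Their summed levels were 469 to 602 CPM in input and 32143 to 39536 CPM in IP. The marker lists were chosen with earlier results of these data known. In bulk RNA, fewer cells of a type and less RNA per cell cannot be told apart. Each value below is a share of its library and not an amount per cell.

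Most of the astrocyte RNAs were lower in IP, but to very different degrees. Of the 9 genes, 7 fell and none rose (edgeR quasi-likelihood test, Benjamini-Hochberg adjusted p below 0.05 over all genes tested), where 23.9% of 16196 tested genes fell and 23.8% rose. The 7 were Aqp4, Gja1, Gfap, Gjb6, Atp1b2, Slc4a4 and Slc1a3, and Slc1a2 and Glul were not called. The median log2 fold, IP over input, was -1.95 for the 9 genes and -0.10 for all tested genes. With a minimum change of 2-fold in the test, 5 of them fell (Aqp4, Gja1, Gfap, Gjb6 and Atp1b2), where 12.5% of tested genes fell and 13.4% rose. All 3 IP values lay below all 3 input values for the same 7 genes that fell, which held for 32.9% of tested genes. The choice of genes was made with earlier results of these data known, so these counts describe the genes and do not test them as a set.

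**Figure D1:**
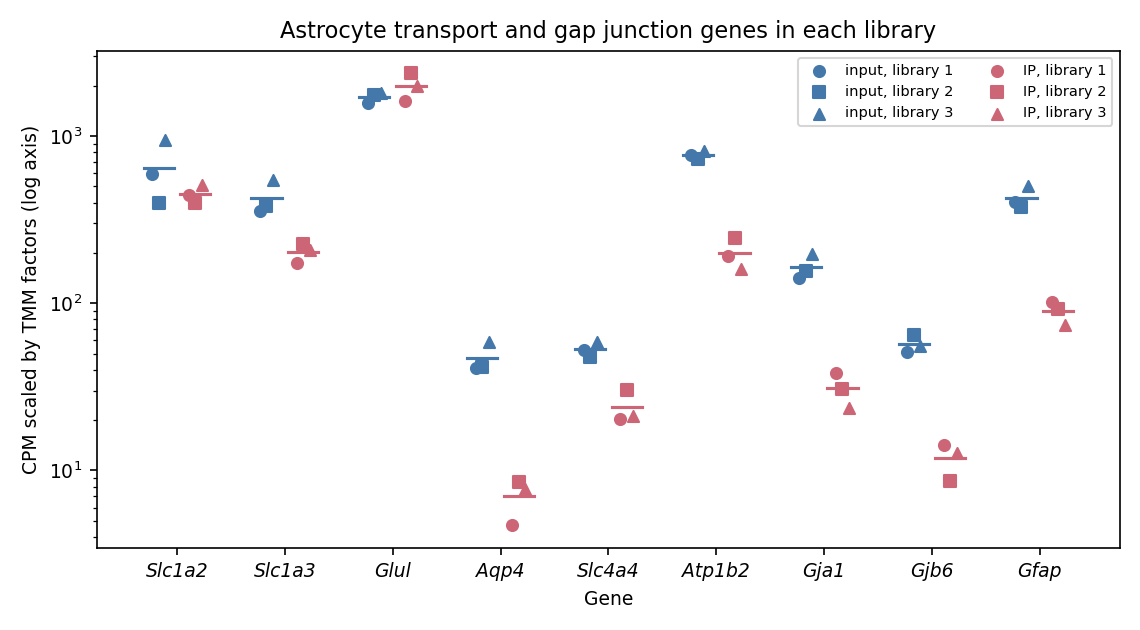
CPM of each gene (log axis) in the 3 input libraries (blue) and the 3 IP libraries (red), with the mean as a line and 1 marker shape per title code. The groups are apart for 7 genes and overlap for Slc1a2 and Glul, and Slc1a2 has the widest spread in input, from 399 to 951 CPM.

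Of the genes of glutamate uptake and recycling, Slc1a3 fell, and Slc1a2 and Glul were not called. Slc1a2 (ENSMUSG00000005089, chromosome 2, 102658659 to 102790784, plus strand, GRCm38) encodes GLT-1, which takes up most of the glutamate in the forebrain. Input libraries 1, 2 and 3 held it at 592, 399 and 951 CPM, and the matching IP libraries at 446, 396 and 512 CPM. Input library 2 lay at the level of the IP libraries and input library 3 far above them, so the groups overlapped. The log2 fold was -0.52 (SE 0.28, 95% interval -1.14 to 0.11, edgeR adjusted p = 0.16), an interval that includes no difference as well as a fall of more than 2-fold. The outcome varied with the libraries kept. Without input library 2 the log2 fold was -0.80 (edgeR adjusted p = 0.02). Without both libraries of pair 2 it was -0.70 (edgeR adjusted p = 0.085), and without input library 3 it was -0.16 (edgeR adjusted p = 0.63). Gm13872, an antisense gene that overlaps Slc1a2, had only 285 counts summed over input and 52 over IP.

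Slc1a3 (ENSMUSG00000005360, chromosome 15, 8634124 to 8710764, minus strand) encodes GLAST, the second astrocytic glutamate transporter, which radial glia also use. It was at 357, 383 and 546 CPM in input and at 174, 227 and 209 CPM in IP. All IP values lay below all input values, with input library 3 again the highest. Slc1a3 fell 2.11-fold, with a log2 fold of -1.08 (SE 0.19, edgeR adjusted p = 0.0014). Its IP level was 48.6%, 59.3% and 38.2% of the input level in pairs 1, 2 and 3, against 75.4%, 99.5% and 53.9% for Slc1a2. The IP share of Slc1a2 was the higher in every pair, and the difference in log2 fold was 0.62 ± 0.13 (SD, n = 3 pairs). That direction depended on the fit: with an offset for transcript length, described further on, the difference was -0.15, with log2 folds of -1.42 for Slc1a2 and -1.25 for Slc1a3, and both genes fell.

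Glul (ENSMUSG00000026473, chromosome 1, 153899944 to 153909723, plus strand) encodes glutamine synthetase, which oligodendrocytes and microglia can also express. It was the most abundant of the 9 genes, at 1587, 1750 and 1821 CPM in input and at 1629, 2373 and 2001 CPM in IP. The groups overlapped, and IP was above input in all 3 pairs, by 0.04, 0.44 and 0.14 on the log2 scale. The log2 fold was 0.22 (SE 0.17, 95% interval -0.16 to 0.60, edgeR adjusted p = 0.32), so a fall of the size seen for Slc1a3 lies outside its interval. The annotation places Mir8114, a microRNA gene, over Glul on the same strand, and the table gives it 8161 counts summed over input and 5996 over IP. The sources used here do not say how reads were divided between such genes. With the counts of Mir8114 and of Teddm2, which overlaps Glul on the other strand, added to Glul, the log2 fold was 0.21.

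The 5′ flanks of the 2 transporter genes are shown because they are the main glutamate transporters of astrocytes and the pair whose order in the IP turned with the length offset. They are the 250 bases before the RefSeq start (GRCm38.p6), read on the coding strand, chr2:102706188-102706437 for Slc1a2 and chr15:8710808-8711057 on the minus strand for Slc1a3. The Slc1a2 start lies inside the longer gene span given above. Capitals mark matches, on either strand, to the TATA box, spelled TATAAA, to the NFI motif, spelled TTGGCA, to the SOX motif, spelled AACAAT, to the STAT motif, spelled TTCNNNGAA, to the GC box, spelled GGGCGG, or to the AP-1 motif, spelled TGAGTCA. These were chosen with the sequences in view, and no matches overlapped in the sequences shown.
Slc1a2: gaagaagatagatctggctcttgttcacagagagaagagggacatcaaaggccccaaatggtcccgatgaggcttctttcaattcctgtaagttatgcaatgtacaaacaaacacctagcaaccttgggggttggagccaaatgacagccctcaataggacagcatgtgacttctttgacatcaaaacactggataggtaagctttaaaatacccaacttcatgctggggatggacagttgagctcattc
Slc1a3: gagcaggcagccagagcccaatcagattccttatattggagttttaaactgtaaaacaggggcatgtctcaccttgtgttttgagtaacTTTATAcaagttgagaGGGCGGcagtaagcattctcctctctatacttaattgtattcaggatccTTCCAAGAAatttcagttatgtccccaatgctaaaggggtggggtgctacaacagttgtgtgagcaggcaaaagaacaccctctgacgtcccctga
Slc1a2 held none of these letters in this window. Slc1a3 held a TATA box match on the other strand at 161 bases, a GC box match at 145 bases and a STAT match at 96 bases before the start. Such matches occur in 12.4% (TATA box), 32.7% (GC box) and 7.02% (STAT) of 32851 promoter windows of this length. A match is a description of letters, and IP against input does not measure promoter activity.

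Among the genes of water and ion transport, the water channel was reduced most and the bicarbonate transporter least. Aqp4 (ENSMUSG00000024411, chromosome 18, 15389496 to 15410982, minus strand) encodes aquaporin-4, the water channel concentrated in perivascular endfeet. It was at 40.9, 41.5 and 58.8 CPM in input and at 4.7, 8.53 and 7.75 CPM in IP, from 83 to 100 counts in each IP library. The groups were far apart, and Aqp4 fell 6.77-fold (log2 fold -2.76, SE 0.31, edgeR adjusted p = 7.6e-05), the lowest fold of the 9 genes. Only 7.58% of tested genes had a lower log2 fold.

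Slc4a4 (ENSMUSG00000060961, chromosome 5, 88886818 to 89239653, plus strand) encodes the electrogenic sodium bicarbonate cotransporter NBCe1, which regulates pH in astrocytes. It was at 52.6, 47.4 and 59.0 CPM in input and at 20.4, 30.1 and 21.1 CPM in IP. The groups did not overlap, and Slc4a4 fell 2.22-fold (log2 fold -1.15, SE 0.23, edgeR adjusted p = 0.0027). Aqp4 and Slc4a4 had input levels close to each other, yet the log2 difference of Aqp4 minus that of Slc4a4 was -1.65, -1.57 and -1.38 in pairs 1, 2 and 3. Atp1b2 (ENSMUSG00000041329, chromosome 11, 69599736 to 69605942, minus strand) encodes the beta-2 subunit of the sodium-potassium pump, also known as an adhesion molecule on glia. It was at 767, 733 and 815 CPM in input and at 191, 246 and 160 CPM in IP. Atp1b2 fell 3.87-fold (log2 fold -1.95, SE 0.18, edgeR adjusted p = 1.9e-05), with the tightest input values of the 9 genes, a coefficient of variation of 5.34%.

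The connexins fell to a similar extent. Gja1 (ENSMUSG00000050953, chromosome 10, 56377330 to 56402513, plus strand) encodes connexin 43, the main gap junction protein of astrocytes. It was at 142, 156 and 198 CPM in input and at 38.4, 30.8 and 23.7 CPM in IP, a 5.34-fold fall (log2 fold -2.42, SE 0.23, edgeR adjusted p = 2.1e-05). Gjb6 (ENSMUSG00000040055, chromosome 14, 57123303 to 57133611, minus strand) encodes connexin 30, the second astrocytic connexin. It was at 51, 64.6 and 55.2 CPM in input and at 14.2, 8.7 and 12.8 CPM in IP, a 4.77-fold fall (log2 fold -2.25, SE 0.26, edgeR adjusted p = 7.5e-05). For both genes the groups were apart, but the order of the libraries differed: Gja1 was lowest in IP library 3 and Gjb6 in IP library 2. The difference in log2 fold, Gja1 minus Gjb6, was -0.07, 0.50 and -0.97 in pairs 1, 2 and 3, with a mean of -0.18 ± 0.74 (SD, n = 3 pairs), so the connexins were not separated beyond their spread.

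The 250 bases before the RefSeq start of each connexin gene are given in the same way, because these were the 2 channel genes of one family that fell together. They lie at chr10:56377050-56377299 for Gja1 and at chr14:57133612-57133861 on the minus strand for Gjb6, in GRCm38.p6.
Gja1: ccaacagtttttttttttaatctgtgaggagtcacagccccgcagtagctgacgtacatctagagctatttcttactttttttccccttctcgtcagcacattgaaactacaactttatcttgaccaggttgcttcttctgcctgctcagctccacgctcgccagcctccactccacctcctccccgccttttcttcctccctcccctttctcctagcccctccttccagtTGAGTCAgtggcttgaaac
Gjb6: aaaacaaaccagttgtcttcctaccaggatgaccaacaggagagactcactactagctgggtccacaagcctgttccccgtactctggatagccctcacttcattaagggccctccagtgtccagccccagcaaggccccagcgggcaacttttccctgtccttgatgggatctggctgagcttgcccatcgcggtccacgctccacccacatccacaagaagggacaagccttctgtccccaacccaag
Gja1 held 1 match among the motifs listed, an AP-1 match at 19 bases before the start, a motif found in 4.46% of the windows. Gjb6 held none of them.

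Gfap (ENSMUSG00000020932, chromosome 11, 102887336 to 102900912, minus strand) encodes glial fibrillary acidic protein, which reactive astrocytes make in larger amounts. It was at 406, 375 and 503 CPM in input and at 102, 92.1 and 74.2 CPM in IP. The groups were well apart, and Gfap fell 4.79-fold with the smallest adjusted p of the 9 genes (log2 fold -2.26, SE 0.18, edgeR adjusted p = 8.3e-06). Its log2 difference minus that of Slc1a2 was -1.58, -2.01 and -1.86 in pairs 1, 2 and 3. Gm26668, a non-coding RNA gene on the opposite strand that overlaps Gfap, had 239 counts summed over input and 189 over IP, and with these added the log2 fold of Gfap was -2.20.

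**Figure D2:**
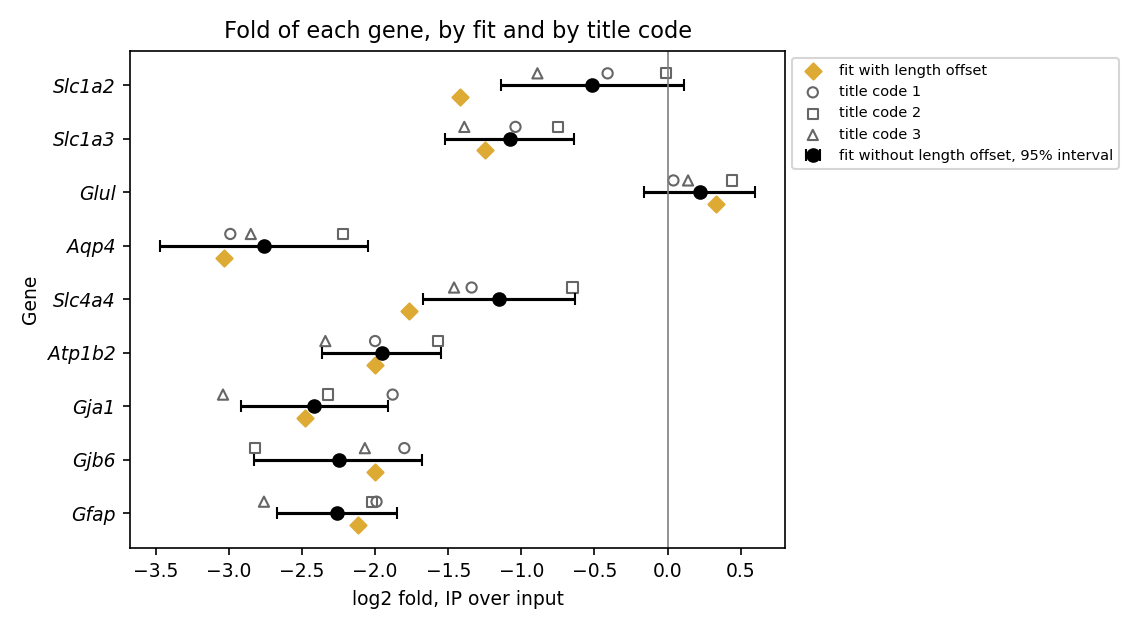
Log2 fold of each gene, IP over input: the fit across all genes with its 95% interval (black), the same fit with an offset for transcript length (yellow diamonds) and the log2 difference within each title code (open markers). Intervals of Slc1a2 and Glul cross 0, and the offset moves Slc1a2 from -0.52 to -1.42 and Slc4a4 from -1.15 to -1.77.

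Some differences between genes in log2 fold varied less over the pairs than the folds themselves. Pair 3 had the lowest log2 fold for 6 of the 9 genes and pair 2 the highest for 6 of them. Among 15 neuronal markers these numbers were 8 and 9, and among 10 oligodendrocyte markers 3 and 3. Over all tested genes the median log2 difference was -0.07, -0.08 and -0.23 in pairs 1, 2 and 3. The log2 difference of Slc1a2 ranged from -0.89 to -0.01 over the pairs, while its excess over Slc1a3 ranged from 0.49 to 0.74. Slc4a4 minus Atp1b2 was 0.82 ± 0.14, Aqp4 minus Slc4a4 was -1.53 ± 0.14, and Slc1a2 minus Glul was -0.64 ± 0.34 (SD, n = 3 pairs each). Of 6 comparisons between genes, 5 had the same sign in all 3 pairs, the exception being the connexins. The exact two-sided sign-flip permutation test gave p = 0.25 for each of these 5 (adjusted p = 0.3), which is the smallest p that 3 pairs allow, and p = 0.75 for the connexins. Input libraries differed as well. Input library 3 was the highest of the input libraries for 8 of the 9 genes, with Gjb6 the exception, against 11 of 22 further astrocyte identity genes.

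Of 25 further astrocyte transport genes, 15 fell, 2 rose and 8 were not called, where 23.9% of all tested genes fell and 23.8% rose. Their median log2 fold was -1.11. Slc6a11, the GABA transporter GAT-3, fell from 223 ± 53.7 to 28.1 ± 12 CPM (SD, n = 3). Kcnj10, the potassium channel Kir4.1, fell from 128 ± 16.3 to 59.2 ± 17.4 CPM (log2 fold -1.11, SE 0.22). Mlc1 and Hepacam, partner membrane proteins of astrocyte junctions, fell with log2 folds of -2.95 and -2.47. The 2 genes that rose were Abca1, a cholesterol exporter that macrophages use (9.38 ± 2.15 to 88.8 ± 11.2 CPM), and Slc2a1, the glucose transporter of the blood-brain barrier (46.4 ± 4.08 to 94.3 ± 18.1 CPM). Of 22 astrocyte identity genes, 21 fell and none rose, with a median of -2.47. Cbs, an enzyme of sulphur amino acid metabolism, was the one not called (log2 fold -0.42, SE 0.34).

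The families of the 9 genes were read with the 9 genes included. Over all tested genes 23.9% fell and 23.8% rose, and the counts of each family stand beside these shares. Of 23 connexin and pannexin genes, 12 were tested, 6 fell and none rose. Gjb1, a connexin of oligodendrocytes, fell with a log2 fold of -3.07. Gjb2, connexin 26, was not called, with 3.11 ± 2.05 CPM in input against 5.3 ± 5.87 CPM in IP, and 11 genes of the family had no count in IP. Of 12 tested subunits and regulators of the sodium-potassium pump, 9 fell and 2 rose. Atp1b1, the beta subunit of neurons, fell from 1788 ± 147 to 150 ± 37.4 CPM, whereas Atp1b3 rose from 75.1 ± 15.1 to 127 ± 10.5 CPM and Fxyd5 from 3.19 ± 2.21 to 18.6 ± 8.88 CPM.

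Of 6 tested SLC1 transporters, 4 fell and none rose, where 23.9% of all tested genes fell and 23.8% rose. Slc1a1, the neuronal glutamate transporter EAAC1, fell from 129 ± 21 to 35.1 ± 4.85 CPM, and Slc1a5, a transporter of neutral amino acids, averaged 0.997 ± 0.45 CPM in input against 4.87 ± 2.78 CPM in IP (edgeR adjusted p = 0.075). Of 11 tested genes of the glutamate and glutamine cycle, 6 fell and 1 rose. The one that rose was Slc38a1, a glutamine carrier (91.4 ± 5.15 to 181 ± 18.2 CPM), and Slc38a3, the glutamine carrier of astrocytes, fell from 61.1 ± 10.2 to 28.1 ± 11.6 CPM. Of 14 tested bicarbonate carriers and carbonic anhydrases, 8 fell and 2 rose, the rises being no more frequent than over all tested genes. Slc4a7 rose from 6.82 ± 5.19 to 32.2 ± 6.32 CPM and Slc4a2 from 38 ± 12.8 to 84.3 ± 26.8 CPM, opposite in direction to Slc4a4.

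Of 3 tested aquaporins, Aqp4 and Aqp11 fell, and Aqp1, the channel of choroid plexus, was not called, with 5.2 ± 4.88 CPM in input against 2.71 ± 2.56 CPM in IP. Of 7 tested genes for the complex that anchors aquaporin-4 at the endfoot, 1 fell and 2 rose, with a median log2 fold of -0.15. These counts are near the shares of all tested genes, of which 23.9% fell and 23.8% rose. Dtna, alpha-dystrobrevin, fell from 49.5 ± 13.8 to 24.4 ± 2.47 CPM. Of 10 intermediate filament genes, 6 fell and 2 rose, the rises again near the share of all tested genes. Those that fell were Gfap, Ina, Nefl, Nefm, Nefh and Prph. Nefl is also one of the 15 neuronal markers, and Prph had no count in IP. Nes, nestin, rose from 1.58 ± 1.17 to 25.7 ± 4.61 CPM, and Vim, vimentin, which astrocytes and vessel cells share with other cells, was not called, with 17.4 ± 5.42 CPM in input against 18.5 ± 6.13 CPM in IP.

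**Figure D3:**
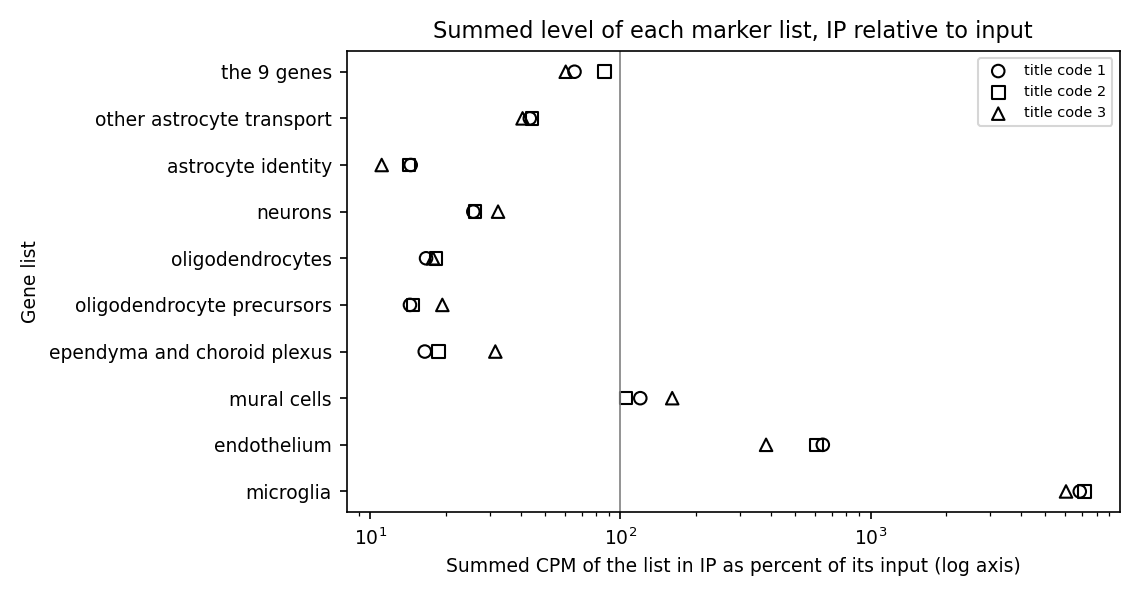
Summed CPM of each gene list in IP as percent of its summed CPM in the input of the same title code (log axis; 1 marker per title code; the line marks 100%). The 9 genes lie between 60.4% and 86.4%, to which Glul contributes most, and the astrocyte identity genes between 11.1% and 14.5%.

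The summed level of the 9 genes was 3949 to 5007 CPM in input and 2619 to 3413 CPM in IP, of which Glul alone made 1629 to 2373 CPM in IP. Without Glul, the summed level of the other 8 genes in IP was 41.1%, 47.3% and 32.0% of input in pairs 1, 2 and 3. The astrocyte identity genes summed to 6278 to 7409 CPM in input and to 824 to 1009 CPM in IP. Markers of other cell types moved as well: the summed level in IP was 25.8% to 32.4% of input for 15 neuronal, 16.7% to 18.3% for 10 oligodendrocyte, 14.4% to 19.4% for 7 precursor and 382% to 644% for 8 endothelial markers. Camk2a, which was not called, made most of the neuronal sum in IP, 2003 to 4196 CPM, and without it the other 14 neuronal markers were at 11.8% to 14.4% of input. Of 8 mural cell markers 1 rose, where 23.8% of all tested genes rose. Of 8 markers of ependyma and choroid plexus 1 fell, where 23.9% of all tested genes fell. Their summed input level was 3812, 2696 and 42.5 CPM in libraries 1, 2 and 3. Ttr, a choroid plexus transcript, was at 3697, 2619 and 7.18 CPM in them. In IP libraries 1, 2 and 3 it was at 561, 456 and 9.99 CPM, so both libraries of pair 3 stood apart. No marker of the neuronal, oligodendrocyte, precursor or endothelial lists was at 0 in all IP libraries. Aqp4, Gja1, Gjb6, Gfap and Atp1b2 were at 14.9% to 25.8% of their mean input level in IP, Slc4a4 at 45.0%, Slc1a3 at 47.4%, Slc1a2 at 69.8% and Glul at 116%. With the length offset Slc1a2 averaged 623 ± 178 CPM in input and 233 ± 6.81 CPM in IP (SD, n = 3). The part of RNA from these other cell types in the folds of the 9 genes was not tested.

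The fold was also read against transcript length. Slc1a2 has the longest annotated transcript of the 9 genes, 11595 bases, of which 1716 are coding and 9253, or 79.8%, form the 3′ UTR. Slc4a4 follows with 7931 bases, and Gjb6, with 2105 bases, and Gfap, with 2648 bases, are the shortest. Slc1a2 and Slc4a4 had log2 folds of -0.52 and -1.15, against -2.25 and -2.26 for Gjb6 and Gfap. Several genes did not follow this order, Aqp4 and Glul among them. Slc1a3, with 4435 bases, had a higher log2 fold (-1.08) than Slc4a4. Gja1, with 3889 bases, had a lower log2 fold (-2.42) than Gjb6 and Gfap. Aqp4 has 5054 bases, 78.3% of them 3′ UTR, and the lowest fold, and Glul has 2792 bases and the highest. Spearman's rho between log2 fold and longest transcript length was accordingly only 0.18 over the 9 genes, 0.49 over the 56 tested astrocyte genes of the 3 lists and 0.19 over 15948 tested genes with a length. With the median transcript length of each gene in place of the longest, rho was -0.58, 0.20 and 0.04. The relation over the 9 genes thus changed sign with the choice of length. These are relations across genes, which share libraries and are not replicates.

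**Figure D4:**
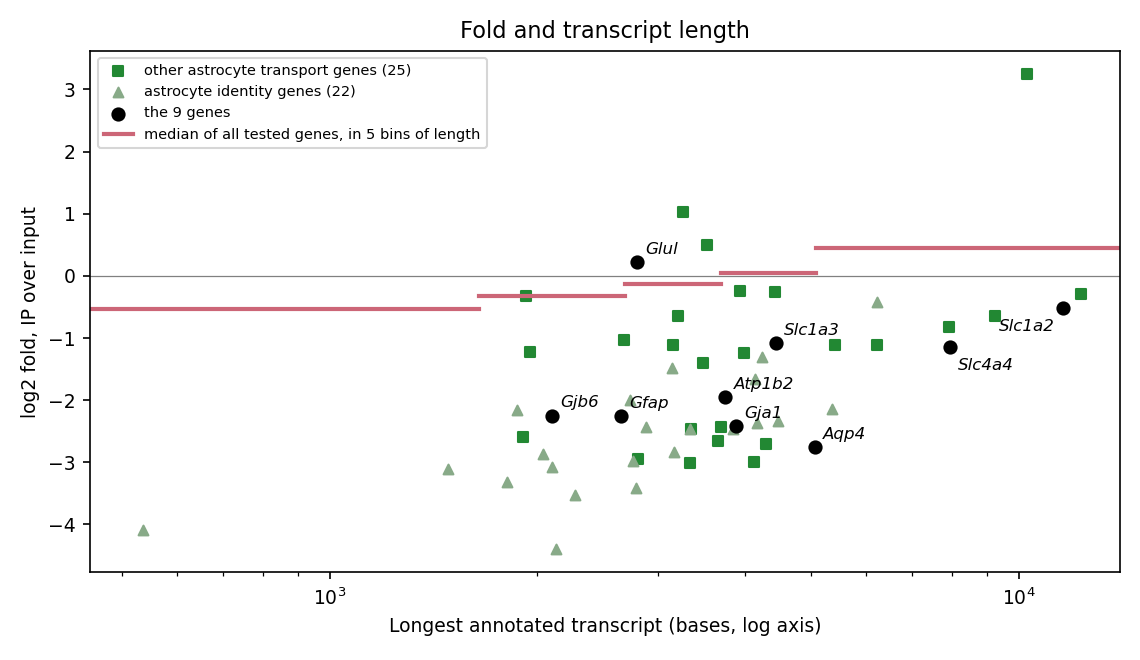
Log2 fold, IP over input, against the longest annotated transcript (bases, log axis) for the 9 genes (black, named), 25 other astrocyte transport genes and 22 astrocyte identity genes. Red lines give the median of all tested genes in 5 bins of length (first and last cut at the axis limits), from -0.53 to 0.45, and all of the 9 genes but Glul lie below the line of their bin.

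In 3 bins of the 56 astrocyte genes by length, the median log2 fold was -2.86 in the 19 shortest, -2.18 in the middle 18 and -1.11 in the 19 longest genes. The bins pool lists whose medians differ, -2.47 for the identity genes and -1.11 for the further transport genes. The longest bin includes Abca1 (10262 bases, log2 fold 3.24). The part of list membership in this trend and in the rho of 0.49 was not tested. Over all tested genes the median went from -0.53 in the shortest of 5 bins to 0.45 in the longest, so Slc1a2 and Slc4a4, in the longest bin, lay further below genes of their own length than their folds alone show. The input libraries also differed from each other with length. Spearman's rho between transcript length and the deviation of a library from the input mean was computed over 15948 genes. It was 0.14, -0.30 and 0.23 in input libraries 1, 2 and 3, the same order as the level of Slc1a2 in them. In IP libraries 1, 2 and 3 it was 0.18, 0.15 and 0.22.

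A smooth trend of each library on length was used as an offset in the fit, as 1 of the alternatives. For Slc1a2 the offset on the log2 scale was 0.07, -0.28 and 0.21 in input libraries 1, 2 and 3. In IP libraries 1, 2 and 3 it was 0.90, 0.76 and 1.18, so the IP values moved most. With the offset the values of Slc1a2 were 562, 483 and 823 CPM in input and 240, 234 and 226 CPM in IP. The groups no longer overlapped, and Slc1a2 fell, with a log2 fold of -1.42 (edgeR adjusted p = 2.6e-04). Slc1a3 then had a log2 fold of -1.25, so the excess of Slc1a2 over Slc1a3 turned to -0.15, and the excess of Slc4a4 over Atp1b2 shrank from 0.82 to 0.23. Aqp4 remained lower than Slc4a4, by a mean of -1.18, and Gfap lower than Slc1a2, by -0.73. The count of genes that fell was 8 of 9, where 3930 of 16196 tested genes fell and 3685 rose in that fit. Glul was still not called (log2 fold 0.33, edgeR adjusted p = 0.11). The offset takes the trend over all genes, microglial ones included, and the longest annotated transcript need not be the one present.

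Per length, the order of the 9 genes changed little between groups. In input the level per kilobase of the longest transcript was highest for Glul, at 616 ± 42.9 CPM per kilobase, followed by Atp1b2 at 206 ± 11, Gfap at 162 ± 25.3, Slc1a3 at 96.6 ± 23.1, Slc1a2 at 55.8 ± 24.2, Gja1 at 42.6 ± 7.51, Gjb6 at 27.1 ± 3.3, Aqp4 at 9.31 ± 2.02 and Slc4a4 at 6.68 ± 0.731 (SD, n = 3). The ranges of Slc1a3 and Slc1a2 overlapped, as did those of Slc1a2 and Gja1, and the other neighbours were apart. With the longest coding transcript as the length, Slc1a3 and Slc1a2 were apart. In IP, Glul was at 717 ± 133 CPM per kilobase, far above Atp1b2 at 53.1 ± 11.6. Atp1b2, Slc1a3 (45.8 ± 6.11), Slc1a2 (39 ± 5.01) and Gfap (33.8 ± 5.31) each overlapped the next, so that Gfap, above the glutamate transporters in input, was no longer above them. Gja1 (7.96 ± 1.88) and Gjb6 (5.66 ± 1.37) also overlapped. With the longest coding transcript, Atp1b2 and Slc1a3 were apart, as were Gja1 and Gjb6. Aqp4, at 1.38 ± 0.401, was now below Slc4a4 at 3.01 ± 0.682.

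Genes outside astrocyte lists lay close to the mean profile of the 9 genes. Among 5922 other named genes whose average log2 CPM reached 5, the 5 with the smallest Euclidean distance to the mean centred profile over the 6 libraries were Ppp3cb, Nptn, Klf16, Mmp24 and Cdip1, at distances of 0.20 to 0.30. The distances of the 9 genes themselves ran from 0.60 for Slc4a4 to 2.19 for Glul. The 5 genes were picked as the nearest of 5922, and the mean averages 9 unlike profiles. Their smaller distances therefore follow largely from the choice and set nothing apart about the 9 genes. Ppp3cb, a catalytic subunit of calcineurin, fell from 187 ± 24.4 to 64.1 ± 4.76 CPM, and Nptn, the synaptic adhesion protein neuroplastin, from 494 ± 62.5 to 180 ± 15.9 CPM.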

How the data were processed

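RNA-seq read counts of 3 IP and 3 input libraries of mouse hippocampus were used. The authors deposited whole-number counts per gene, not normalized, in a table of 39017 gene identifiers with 1 column per library. Per the labels' protocols, a stranded kit with mRNA enrichment was used. The submitters' processing notes name bcl2fastq 2.17, FastQC, Trimmomatic and mm10. No source used here names the aligner, counting program, strand setting or annotation, so values of overlapping genes are uncertain. GENCODE M21 (GRCm38, the assembly also called mm10) named 37693 identifiers and gave coordinates and transcript lengths. The other 1324 held 0.403% to 0.464% of a library's counts and stayed in totals and tests. Promoter sequences are from RefSeq (GRCm38.p6), which matched 7 of the 9 genes with 8 starts.

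Counts were tested with edgeR 4.0.16 (R 4.3.3): TMM factors on library totals, filterByExpr with a minimum count of 10, robust quasi-likelihood F test of IP against input without a block, Benjamini-Hochberg adjustment over 16196 genes and calls below 0.05. Log2 folds used a prior count of 0.125, and SE and 95% intervals come from the F statistic. CPM was scaled by TMM factors, and differences within a title code used log2(CPM + 0.5). The genes to be named were all 9 genes, members of 6 lists, and the 5 genes with the nearest profile. Cbs, Slc38a1, Slc4a2, Slc4a7, Dtna, Camk2a and Ttr are outside that rule and were named after their values were seen, and list sums without Camk2a or Glul were also added then. The 9 genes and all lists were chosen with earlier results of these data known. The fit was tested on simulated counts. Alternatives included DESeq2 1.42.0, limma-voom (limma 3.58.1) and an offset per library from a lowess trend on the longest annotated transcript. Summaries and plots were made with pandas 2.3.3, SciPy 1.17.1, NumPy 2.4.6 and Matplotlib 3.10.9 under Python 3.11.15. Library depth limits precision for low counts, and the floors allow for counting error alone, as no molecular identifiers were counted.

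An IP library and its input share a title code, and were paired by it because input and precipitate normally come from one lysate, which the labels do not state. Deviations from the group means over 11180 genes correlated at 0.06, 0.25 and 0.18 within codes and at -0.20 to 0.03 between codes. Within a group, every 2 libraries differed by more than sampling noise (chi-square per degree of freedom 24.1 to 48.0).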

Additional observations from a re-analysis of the deposited data

How the results depend on the processing

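All 7 genes that fell did so in every alternative fit tried (scaling, filter, DESeq2, limma-voom, block, each library or pair left out, thinning, prior count, length offset) at adjusted p below 0.05, except that Slc1a3 and Slc4a4 were not called with the 2-fold minimum. Slc1a2 was called with the length offset (log2 fold -1.42), with the offset and the replicate block (-1.38) and without input replicate 2. Over the left-out libraries and pairs its log2 fold ran from -0.80 to -0.16. Glul ran from 0.06 to 0.35 and was not called in any of these fits. The title code as a replicate block changed no call of the 9 genes (Slc1a2 -0.44, edgeR adjusted p = 0.058) and gave 3784 lower and 3698 higher genes. The median of the 9 genes ran from -2.09 to -1.81. Upper quartile factors shifted all genes by -0.13 on the log2 scale, and the median of the 9 genes relative to that of all genes was -1.86 with either scaling.

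Over all genes, 3869 were lower and 3854 higher. With the 2-fold minimum 2021 were lower and 2176 higher, and over left-out libraries and pairs 2467 to 4192 were lower, the lowest without pair 1. With the length offset the difference of Slc1a2 and Slc1a3 was -0.15, against 0.62; the cause was not tested. Spearman's rho of fold with length over the 9 genes was -0.58 with median transcript length, 0.38 with coding length and 0.43 in pair 2 alone. Over the astrocyte genes it was 0.20 with median length, 0.35 with 3′ UTR length and 0.33 in pair 1 alone, and over all tested genes 0.04, 0.24 with coding length, 0.06 with 3′ UTR length and 0.16 in pair 1 alone; the cause was not tested. The longest coding transcript, added after the data were seen, gave 0.18, 0.49 and 0.19. Depth limits Aqp4 most, with 83 to 100 counts per IP library.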
